A study of Mus musculus with 24 samples.

Results

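Wild type muscle stem cells taken 1 day after muscle injury were compared with the same cells from uninjured muscle, in 8 of the 24 bulk RNA sequencing libraries of a mouse series. The comparison holds all 4 libraries labelled L2A-WT and uninjured (day 0) and all 4 labelled L2A-WT and 1 dpi (day 1). Injured muscles had received 50 µL of cardiotoxin at 10 µM, a venom protein that kills myofibres. Both groups carry the wild type Lamp2a genotype, and the other 16 libraries are L2A-Pax7CreER cells or WT cells at day 4. Strain, sex, age, muscle, the sort gate and the number of animals are not given in the sources used here. The labels name no animal for any library, so p-values reflect only how far these libraries spread, and that spread may be technical. Of 17111 genes in the table, 12983 reached 1 or more in 4 or more of the 8 libraries and were tested, and 4128 were not.

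Muscle stem cells, or satellite cells, sit between the myofibre and its basal lamina and express the transcription factor Pax7. In resting muscle they are out of the cell cycle, with little cytoplasm, few mitochondria and low rates of RNA and protein synthesis, and Notch signalling and the calcitonin receptor help to hold them there. Injury brings them out of quiescence. They build up Myod1 protein, grow, enter the cell cycle and later either differentiate into muscle or return to quiescence.

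Values below are normalised read counts, and a log2 fold change is day 1 minus day 0 on the log2(value + 1) scale, where changes of low genes come out too small, with its standard error (n = 4 libraries per group). Total counts ran from 13.65 to 16.14 M at day 0 and from 17.79 to 22.08 M at day 1. Between 2496 and 2864 genes had 0 counts in a day 0 library, against 1212 to 1366 in a day 1 library. The first principal component, with 68.9% of the variance, separated the days, and the second, with 9.65%, set day 0 replicate 1 apart from the other day 0 libraries. Correlations between libraries were 0.847 to 0.868 within day 0 and 0.968 to 0.982 within day 1, so a low gene could stand at 0 counts in one day 0 library and well above it in another. Malat1 alone took 6.14 to 11.13% of the counts of a day 0 library and 0.52 to 0.79% at day 1. In bulk RNA, a smaller share of cells of a type and less RNA of a gene per cell cannot be told apart.

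The cells carried the markers of their label. All 10 muscle stem cell markers were tested, of which 5 rose, 2 (Itga7 and Calcr) fell and 3 did not pass. Their summed value ran from 2569 to 3338 at day 0, and from 3665 to 5428 a day later. Of 20 macrophage and monocyte markers 3 passed the filter, and 1 of these, Cd68, fell. Ptprc, the leukocyte surface protein CD45, was at or below 0.172 in every library, and Lyz2 stood at 86.5 in day 0 replicate 4 and at 11.98 or less in the other 7. The 11 endothelial markers in the table summed to 11.5 to 168.9 at day 0 and 8.51 to 12.4 at day 1. The sum was 157.8 in day 0 replicate 1 and 168.9 in replicate 3, where Fabp4 made up most of it, while Pecam1, Cdh5, Kdr, Flt1 and Esam were highest in replicate 1, and Sox10, which marks Schwann cells, in day 0 replicate 2. Among 15 markers of fibro-adipogenic progenitors in the table, 12 were tested, 2 rose and 5 fell. The 15 summed to 1079 to 1343 at day 0 and 1076 to 1482 at day 1. Pdgfra, the defining receptor of these progenitors, had 0 counts in all 4 day 0 libraries. Other markers of the list were high there, with Dcn at 205 to 474 and Col3a1 at 227 to 294. Ly6a stood at 97.4 in day 0 replicate 1. Of the smooth muscle and pericyte markers 11 were tested, 3 rose and 5 fell. Of 6 Schwann and glial markers tested 1 fell, the lone neutrophil marker tested (Cxcr2) fell (−0.87) but not by edgeR (−1.01, adjusted p = 0.0605), both T, B and natural killer cell markers tested fell, and no erythrocyte marker was tested. The part of these cells in the results below was not tested.

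By day 1, 4444 genes were higher (34.2% of those tested) and 3569 were lower (27.5%; limma, adjusted p below 0.05). The 4 libraries of one day lay wholly above those of the other for 4074 genes higher at day 1 (31.4%) and 3305 lower (25.5%). Over all genes tested, the median change was 0.27, against 0.14 by DESeq2 and 0.04 by edgeR. Quantile normalization and median scaling bring library medians together by design, and gave −0.02 and 0.01. Changes of that size depend on the scaling and have no fixed direction. Lists whose shares lie near 34.2% higher and 27.5% lower do not stand out from the rest of the genes by their counts. Those of surface proteins, myogenic transcription factors, immediate early genes, interferon genes, oxidative stress, adhesion and the endoplasmic reticulum are such lists. Among the genes with the greatest rises, Ruvbl2, an ATPase of chromatin remodelling and ribonucleoprotein assembly, stood at 4.58, 6.46, 3.12 and 3.96 at day 0, then 256, 300, 293 and 331 at day 1, a rise of 5.77 ± 0.23 (adjusted p = 2.6e-07). Drg1, a GTPase, rose by 5.42 ± 0.52 and Ucp2, a carrier of the mitochondrial inner membrane, by 5.08 ± 0.69.

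Among genes with a mean of at least 3 at both days, the deepest falls included Mpp7, Samd4 and nuclear noncoding RNAs. Mpp7, a scaffold of cell junctions that is known to act in satellite cell activation, stood at 831, 1003, 878 and 1046 at day 0, then 36.8, 34.4, 32.0 and 29.8 at day 1 (−4.78 ± 0.13, adjusted p = 3.81e-08). Samd4, a translational repressor, fell by 4.71 ± 0.18. Ret, a receptor tyrosine kinase for glial cell line-derived ligands, fell from 84.4, 109, 82.8 and 74.6 to 4.26, 4.01, 2.79 and 2.29. Prkab2, a subunit of the energy sensor AMPK, fell by 4.38 ± 0.16. These genes were picked among those past the test whose groups do not overlap, so the lack of overlap was set by the choice.

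Many genes went from close to silent to clearly expressed, and few the other way. A total of 161 named genes, of 12983 genes tested, had a mean below 1 at day 0 and at least 10 in every day 1 library. Tnc, the matrix glycoprotein tenascin C of regenerating muscle, stood at 0.516, 0.256, 0.116 and 0.299 at day 0, then 107, 152, 207 and 165 at day 1. Dapk2, a calmodulin-regulated kinase, reached 142 to 175 from at most 0.366. Ap1s1, an adaptor of clathrin coats, reached 134 to 142 from at most 0.5. The opposite pattern held for 5 named genes, and predicted genes were left out of both counts. Day 0 libraries held fewer counts (13.65 to 16.14 M against 17.79 to 22.08 M) and more genes at 0 counts. They also correlated less with each other (0.847 to 0.868 against 0.968 to 0.982), which makes at least 10 in every library harder to reach. The part of depth and of this spread in the contrast was not tested. Wnt4, a Wnt ligand of quiescent satellite cells, stood at 40.4, 35.4, 20.3 and 19.4 at day 0, then 0.478, 0.206, 0.821 and 0.714 at day 1. Grik3, a glutamate receptor subunit, fell from 26.7 to 61.1 down to 0.445 or less. Fam177a2 had 0 counts at day 1 and was at least 413-fold lower against a floor of 3 counts per library, but it has a close copy, and counting could divide reads between them. The same doubt holds for Vmn2r115, one of a large receptor family, and Phtf1os is an antisense gene whose reads cannot be told from its partner's if strand was not used.

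**Figure D1:**
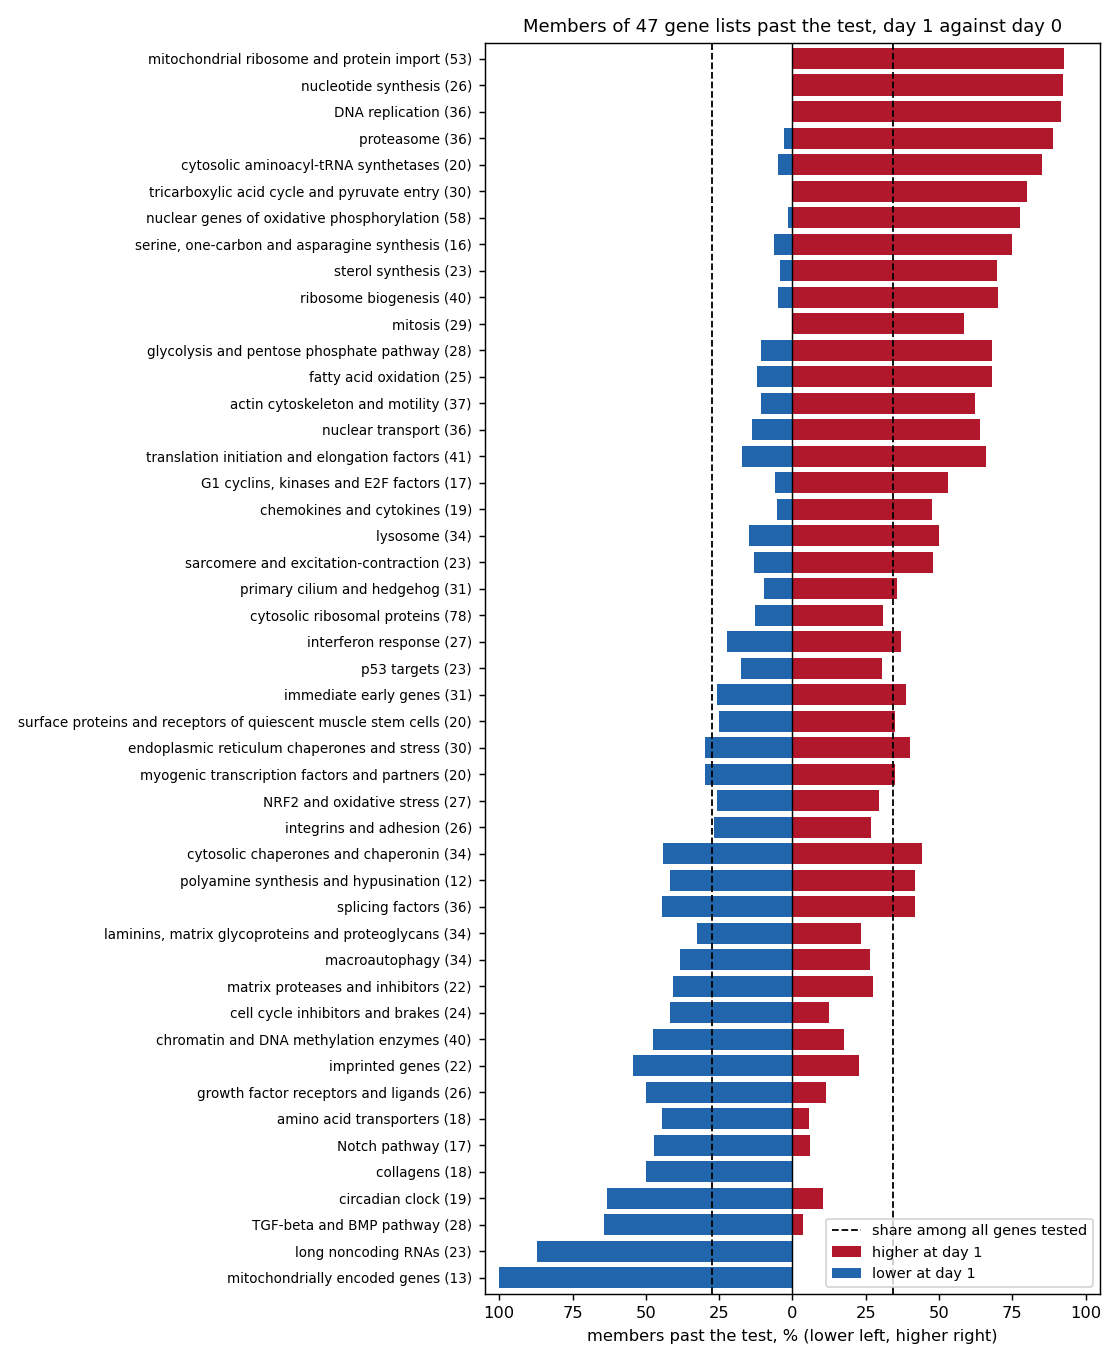
Share of the tested members of each of 47 gene lists that passed the test (limma, adjusted p below 0.05) higher (red, to the right) or lower (blue, to the left) at day 1, with the number of members tested in brackets; dashed lines mark the shares among all genes tested, 34.2% and 27.5%. The lists range from mitochondrial ribosome and import genes, 49 of 53 higher, to the mitochondrially encoded genes, 13 of 13 lower.

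Of 20 myogenic transcription factors and partners tested, 7 rose (35.0%) and 6 fell (30.0%), with 4 higher under median scaling, shares near those of all genes (34.2% and 27.5%). Pax7 stood at 111, 71.9, 46.5 and 46.6 at day 0, then 100, 82.7, 77.2 and 81.0 at day 1. The groups overlap and the change of Pax7 (0.39 ± 0.27, adjusted p = 0.239) missed the threshold, but passed without day 0 replicate 1 (0.65, adjusted p = 0.0222). Myod1, the factor of myogenic commitment, stood at 54.9, 91.3, 162 and 112 at day 0, then 840, 954, 1266 and 815 at day 1, a rise of 3.28 ± 0.29 (adjusted p = 1.01e-05). Myf5, its relative, rose from 85.5, 115, 116 and 128 to 262, 180, 292 and 204 (1.06 ± 0.19). Tcf3, which pairs with both on DNA as E12 and E47, rose by 2.65 ± 0.40.

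The other paired-box factor of satellite cells went the opposite way. Pax3 stood at 93.7, 139, 56.7 and 79.2 at day 0, then 9.57, 5.94, 14.7 and 16.4 at day 1 (−2.90 ± 0.36, adjusted p = 9.06e-05). Six4, a homeobox factor upstream of muscle genes, fell by 2.69 ± 0.29 and its cofactor Eya1 by 1.11 ± 0.30. Mef2a and Mef2d, late factors of muscle differentiation, fell by 1.42 ± 0.22 and 2.15 ± 0.23. Myog, the factor that starts differentiation, had 2 counts in all 4 day 0 libraries together and 1871 at day 1, a ratio of 601 (exact 95% counting interval 166 to 4970, counting error only). Its day 1 values spread widely, at 54.9, 3.19, 3.31 and 20.3, with replicates 1 and 4 high. Replicate 1 held 1321 of the 1871 counts, and without it the ratio was 244, an alternative chosen after seeing the data. The same library held Actc1, an actin of early muscle, at 44.37 and Mymk, of myoblast fusion, at 22.99, while both were at 0.57 or less in the other 7 libraries. Transcripts of mature myofibres were also higher at day 1, as given with the sarcomere genes.

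Of 20 surface proteins of quiescent satellite cells 7 rose (35.0%), 5 fell (25%) and 8 did not pass, also near the shares of all genes. Calcr, the calcitonin receptor, stood at 212, 216, 236 and 181 at day 0, then 78.1, 58.3, 81.9 and 87.7 at day 1 (−1.46 ± 0.17, adjusted p = 4.52e-05). Tek, the receptor for angiopoietins, fell from 219, 250, 196 and 141 to 25.4, 19.9, 34.7 and 22.7. Tenm4 and Ncam1, adhesion proteins, fell by 1.71 ± 0.20 and 1.06 ± 0.13. Cd34, a sialomucin used to sort satellite cells, rose instead, from 116, 174, 128 and 88.0 to 442, 476, 549 and 471 (1.97 ± 0.19). Cdh15, the cadherin that binds the cell to its fibre, stood at 24.8, 10.6, 23.2 and 22.1 at day 0, then 198, 231, 419 and 176 at day 1 (3.58 ± 0.33). Fgfr4, a receptor of fibroblast growth factors, rose by 2.87 ± 0.33, and Vcam1 and Sdc4 did not pass the test (−0.16 ± 0.20 and −0.08 ± 0.19).

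Of 17 Notch pathway genes tested 8 fell, 1 rose and 8 did not pass, with a median of −0.75. Among receptors, Notch3 stood at 47.1, 76.4, 103 and 74.1 at day 0, then 14.8, 13.6, 17.2 and 17.7 at day 1 (−2.13 ± 0.26), Notch1 fell by 2.02 ± 0.29 and Notch2 by 1.49 ± 0.31. The ligand Jag1 fell by 1.98 ± 0.42, and the coactivator Maml1 by 2.24 ± 0.34. Of the targets, Hes1 fell from 52.8, 33.9, 22.98 and 13.8 to 11.7, 6.54, 3.63 and 6.67 (adjusted p = 0.00541). Heyl (−0.33 ± 0.24, adjusted p = 0.254) missed the threshold but passed under median scaling (−0.62).

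**Figure D2:**
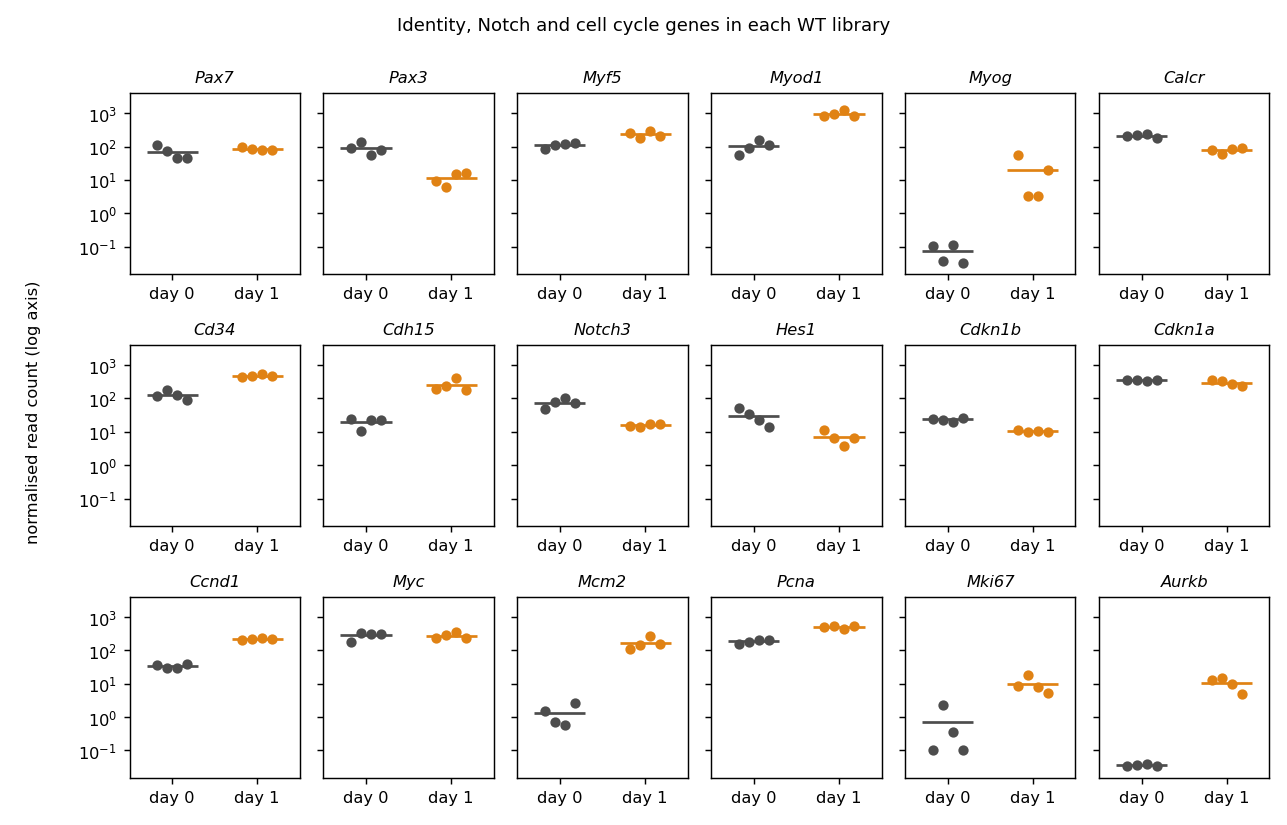
Normalised read counts (log axis) of 18 identity, Notch and cell cycle genes in each of the 4 day 0 libraries (grey) and 4 day 1 libraries (orange), with a bar at each mean; a library with 0 counts still has a small value, since 0.5 is added to each count. Myod1, Ccnd1 and Mcm2 lie above all day 0 libraries at day 1, Pax3, Calcr and Notch3 lie below, and Pax7, Cdkn1a and Myc overlap.

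Brakes on the cell cycle were lower for 10 of 24 genes tested and higher for 3. Btg1, an antiproliferative deadenylase partner, fell from 726, 885, 847 and 717 to 231, 156, 141 and 161 (−2.22 ± 0.16). Cdkn1b, the inhibitor p27, stood at 24.4, 23.1, 20.1 and 26.8 at day 0, then 11.6, 9.75, 10.2 and 10.2 at day 1 (−1.10 ± 0.27, adjusted p = 0.00539). Cdkn2c, the inhibitor p18, fell by 1.82 ± 0.29, Ccng2 by 1.65 ± 0.18 and Foxo1, a factor of quiescence, by 1.36 ± 0.26. Cdkn1a, the inhibitor p21, held 329 to 356 at day 0 and 239 to 349 at day 1 and did not pass the test (−0.24 ± 0.14), though it did under median scaling (−0.54). Spry1, a growth factor antagonist of quiescent cells, did not pass (0.07 ± 0.17). Of the 3 that rose, Rbl1 and E2f4 act in repressor complexes at cell cycle promoters, and Btg2, a relative of Btg1, rose by 1.06 ± 0.13.

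Drivers of the G1 phase were higher for 9 of 17 genes, with 1 lower. Ccnd1, the cyclin that couples growth signals to the cycle, stood at 37.5, 30.0, 29.6 and 39.3 at day 0, then 203, 221, 230 and 223 at day 1 (2.66 ± 0.16, adjusted p = 1.2e-06). Its partner Cdk4 rose from 68.5, 77.5, 79.1 and 88.3 to 588, 569, 617 and 618 (2.92 ± 0.12). Ccnd3 rose by 2.01 ± 0.15, while the third D-type cyclin, Ccnd2, fell by 1.93 ± 0.44. Cdc25a, the phosphatase that opens the S phase kinases, rose by 3.07 ± 0.46. Myc, the growth factor-induced transcription factor, stood at 182 to 334 at day 0 and 232 to 350 at day 1 and did not pass (−0.03 ± 0.22, adjusted p = 0.927), and Ccne1 did not pass either (1.18 ± 0.77), except without day 0 replicate 4 (1.79).

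Genes of DNA replication rose more uniformly. Of 36 tested 33 rose and none fell, with a median of 3.20. In 34 the day 1 libraries lay wholly above those of day 0, against 31.4% of all genes tested. All 6 subunits of the MCM2-7 helicase, all 4 of the GINS complex and all 5 of the clamp loader replication factor C were higher. Mcm2 stood at 1.55, 0.693, 0.577 and 2.63 at day 0, then 106, 144, 278 and 151 at day 1 (6.17 ± 0.40), and Mcm6 at 12.5, 3.69, 34.4 and 45.1 and at 296, 407, 494 and 371 (4.43 ± 0.61). Day 1 replicate 3 was the highest for both. Mcm7 rose by 2.50 ± 0.19 and Pcna, the sliding clamp, already at 156 to 204 at day 0, by 1.44 ± 0.13. Chaf1b, which loads histones behind the fork, reached 61.1 to 78.3 from at most 0.241. Pola1, Pola2 and Orc6 did not pass, though Pola2 did by DESeq2 (0.61) and Pola1 was lower under median scaling (−0.58).

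Sequences before the start sites of these genes were searched for letters bound by E2F factors, which drive S phase genes (TTTCGCGC, TTTGGCGC or TTTCCCGC on either strand, matches may overlap each other). RefSeq windows of GRCm38.p6, from 250 bases before to 50 after a start, were found for 29 of the 36 genes, and 13 of them (44.8%) held a match, against 4.31% of the 9344 tested genes with a window and 1.84% of all 32851 windows. A match is a description of the letters and no test was made. The stretches below show matches that lie before the start in some of the genes that rose. Matches are in capitals with 20 bases of lower case either side, or fewer where the start site ends the stretch.
Mcm5, chr8:75109336-75109387, plus strand: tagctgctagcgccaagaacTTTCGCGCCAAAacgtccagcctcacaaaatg
Mcm6, chr1:128359725-128359835, minus strand: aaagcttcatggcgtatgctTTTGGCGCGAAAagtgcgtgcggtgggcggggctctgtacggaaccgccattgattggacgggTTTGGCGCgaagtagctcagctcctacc
Mcm7, chr5:138172021-138172068, minus strand: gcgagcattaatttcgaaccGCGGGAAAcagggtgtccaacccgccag
Cdc6, chr11:98907993-98908040, plus strand: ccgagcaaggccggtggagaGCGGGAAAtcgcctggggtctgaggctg
Orc1, chr4:108579407-108579453, plus strand: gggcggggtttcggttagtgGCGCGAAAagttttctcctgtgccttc
In Mcm5 and Mcm6 matches on the 2 strands overlap in 1 run, and Mcm6 holds 3 matches in all. Pola1, which did not pass the test, also held a match before the start. By edgeR, Cdc6 (2.51, adjusted p = 0.0908) and Orc1 (2.85, adjusted p = 0.0792) did not pass. The box CCAAT, bound by NF-Y, was in 65.5% of the list's windows and 43.5% of those of all tested genes.

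Mitosis genes rose from a lower floor. Of 29 tested 17 rose and none fell (11 rose by edgeR and 11 by DESeq2), with a median of 1.79. Mki67, the marker of cycling nuclei, stood at 0.103, 2.23, 0.346 and 0.0997 at day 0, then 8.53, 18.6, 7.90 and 5.44 at day 1 (2.75 ± 0.48, adjusted p = 0.000742). Aurkb, a kinase of chromosome segregation, had 0 counts at day 0 and 12.5, 14.7, 9.92 and 4.90 at day 1, at least 42.1-fold higher against a floor of 3 counts per library. Top2a, which untangles DNA, rose from 6.84, 0.62, 2.35 and 7.74 to 25.2, 23.97, 30.0 and 17.4. At day 1 these values stood well below those of Mcm2, and the WT day 4 libraries gave 59.6 ± 7.75 for Mki67 and 13.7 ± 2.42 for Mcm2 (SD, n = 4). Other mitosis genes did not all follow Mki67. The day 4 mean of Aurkb was 4.488, below each of its day 1 values. Mean Cdk1 went from 36.09 at day 1 to 22.99 at day 4 and Ttk from 7.725 to 5.515, while Cdc20 went from 10.13 to 13.47. The change from day 1 to day 4 was not tested.

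Transcripts of the machinery of ribosome building rose, while those of the ribosome's own proteins changed little. Of 40 ribosome biogenesis genes 28 rose and 2 fell, with a median of 1.19. Bop1 and Pes1, partners in large subunit maturation, rose by 3.20 ± 0.41 and 3.31 ± 0.47. Ncl, the nucleolar protein nucleolin, was high at both days, at 1269, 1245, 1215 and 1332 and then at 1891, 1896, 1729 and 1959 (0.56 ± 0.09). Dkc1, which guides pseudouridine to ribosomal RNA, rose by 2.59 ± 0.37. Gnl3, the nucleolar GTPase nucleostemin, fell from 794, 781, 770 and 952 to 356, 347, 308 and 369 (−1.25 ± 0.11). The E-box CACGTG, bound by MYC and MAX, was in 25.7% of 35 windows of this list against 12% of all tested genes. Of 78 cytosolic ribosomal proteins 24 rose and 10 fell, with a median of 0.13, but 12 rose and 19 fell under median scaling (median −0.16), so this list has no fixed direction.

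Transcripts of translation factors and of the enzymes that charge tRNAs were more often higher. Of 41 initiation and elongation factors 27 rose and 7 fell, with a median of 1.04, and all 5 subunits of eIF2B, the exchange factor that the integrated stress response throttles, rose by 1.72 to 3.91. Eif4a2, a helicase isoform of quiescent cells, fell by 1.69 ± 0.22. Of 20 cytosolic aminoacyl-tRNA synthetases 17 rose and 1, Qars, fell, with a median of 1.75. Mars, for methionine, stood at 10.0, 4.20, 0.193 and 0.498 at day 0, then 142, 182, 274 and 147 at day 1 (5.83 ± 0.65). Gars, for glycine, rose from 28.9, 17.4, 28.8 and 51.7 to 232, 176, 216 and 173 (2.70 ± 0.29).

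Genes for the synthesis of serine, one-carbon units and asparagine rose with them, 12 of 16, with 1 lower and a median of 2.79. Asns, which makes asparagine, stood at 0.31, 0.11, 0.423 and 0.233 at day 0, then 74.8, 102, 82.2 and 116 at day 1 (6.21 ± 0.33). Phgdh, the first enzyme of serine synthesis, reached 303 to 387 from 0.653 to 43.5, and Shmt2, which moves the serine carbon into the mitochondrial folate pool, rose by 4.34 ± 0.53. Pycr1, for proline, rose by 4.54 ± 0.35. Atf4, the transcription factor of this pathway, rose by 0.69 ± 0.11. Amino acid transporters did not follow, with 8 of 18 lower and 1 higher. Slc38a2 fell by 1.70 ± 0.12 and Slc7a5 by 1.32 ± 0.25.

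The ATF4 element (TGATGNAAT or TGATGCAAC on either strand) was in 5 of 12 synthetase windows found (41.7%) and in 2 of 14 windows of the serine and asparagine list (14.3%), against 0.76% of those of all tested genes. Of the 2 genes with a match in the serine and asparagine list, Pycr1 rose and Chac1 did not pass the test. As only 12 of 20 synthetases had a window, the synthetase share may not hold for the whole list. Matches that lie before the start in members that rose are shown in capitals, again from GRCm38.p6. The windows of a single chromosome were left out of this display, while the shares count all windows found.
Aars, chr8:111033709-111033757, plus strand: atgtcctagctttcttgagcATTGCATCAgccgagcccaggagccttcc
Gars, chr6:55037950-55037998, plus strand: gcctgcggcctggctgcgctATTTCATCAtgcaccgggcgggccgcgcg
Tars, chr15:11399659-11399694, minus strand: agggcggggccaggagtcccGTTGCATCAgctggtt
Pycr1, chr11:120643823-120643871, minus strand: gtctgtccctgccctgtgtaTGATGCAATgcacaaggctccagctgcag
Aars rose by 1.58 ± 0.32 and Tars by 1.34 ± 0.20, less than Mars or Asns.

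Of 26 genes of nucleotide synthesis 24 rose and none fell, with a median of 2.09. Dut, which clears dUTP, stood at 3.75, 0.182, 0.808 and 3.69 at day 0, then 92.0, 81.0, 73.6 and 91.6 at day 1 (5.02 ± 0.48). Rrm2, the regulated subunit of ribonucleotide reductase, rose by 2.91 ± 0.26 and Tyms, which makes thymidylate, by 3.03 ± 0.43. Polyamine genes were mixed, with 5 of 12 higher and 5 lower. Srm, spermidine synthase, rose from 22.2, 17.3, 32.6 and 42.8 to 325, 194, 164 and 180, while Odc1, the first enzyme of the route, fell from 628, 448, 590 and 635 to 316, 266, 211 and 238 (−1.16 ± 0.16).

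Nuclear genes of oxidative phosphorylation mostly rose while mitochondrially encoded genes fell, though the median change was small for nuclear genes of cytochrome c oxidase. Of 58 nuclear genes of oxidative phosphorylation 45 rose and 1, Uqcrh, fell, with a median of 1.32. Cyc1, cytochrome c1, stood at 45.7, 64.3, 67.9 and 55.7 at day 0, then 553, 536, 545 and 551 at day 1 (3.22 ± 0.14). Of 31 genes named as complex I subunits 26 rose. For cytochrome c oxidase 4 of 10 rose, and the median change was 0.21, against 0.27 over all genes tested. All 13 mitochondrially encoded genes fell, with a median of −1.69. In each the day 1 libraries lay wholly below those of day 0, against 25.5% of all genes tested. mt-Nd3, a complex I subunit, stood at 1088, 1105, 1046 and 930 at day 0, then 293, 219, 168 and 230 at day 1 (−2.22 ± 0.16). mt-Co1, the catalytic oxidase subunit, fell from 5918, 9424, 8307 and 7040 to 4456, 4006, 2699 and 3443 (−1.07 ± 0.18), but did not pass under quantile normalization (−0.21). Together the mitochondrially encoded transcripts took 6.96 to 9.32% of counts at day 0 and 2.2 to 3.68% at day 1.

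Transcripts of the mitochondrial translation and import machinery rose. Of 53 genes of the mitochondrial ribosome and protein import 49 rose and none fell, with a median of 2.30, and 36 of the 37 ribosomal proteins among them rose. Mrps2 reached 62.2 to 66.3 from 0.0365 to 8.28. Timm50, a gate of the inner membrane channel, rose by 3.32, and Tfam, which packages and transcribes mitochondrial DNA, rose from 23.01, 33.0, 15.9 and 31.2 to 63.6, 59.9, 64.4 and 66.9 (1.32 ± 0.25). Ppargc1a, the coactivator of mitochondrial growth, was at 5.80 or less in every library and did not pass (−0.55 ± 0.50), except without day 0 replicate 4 (−1.01).

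**Figure D3:**
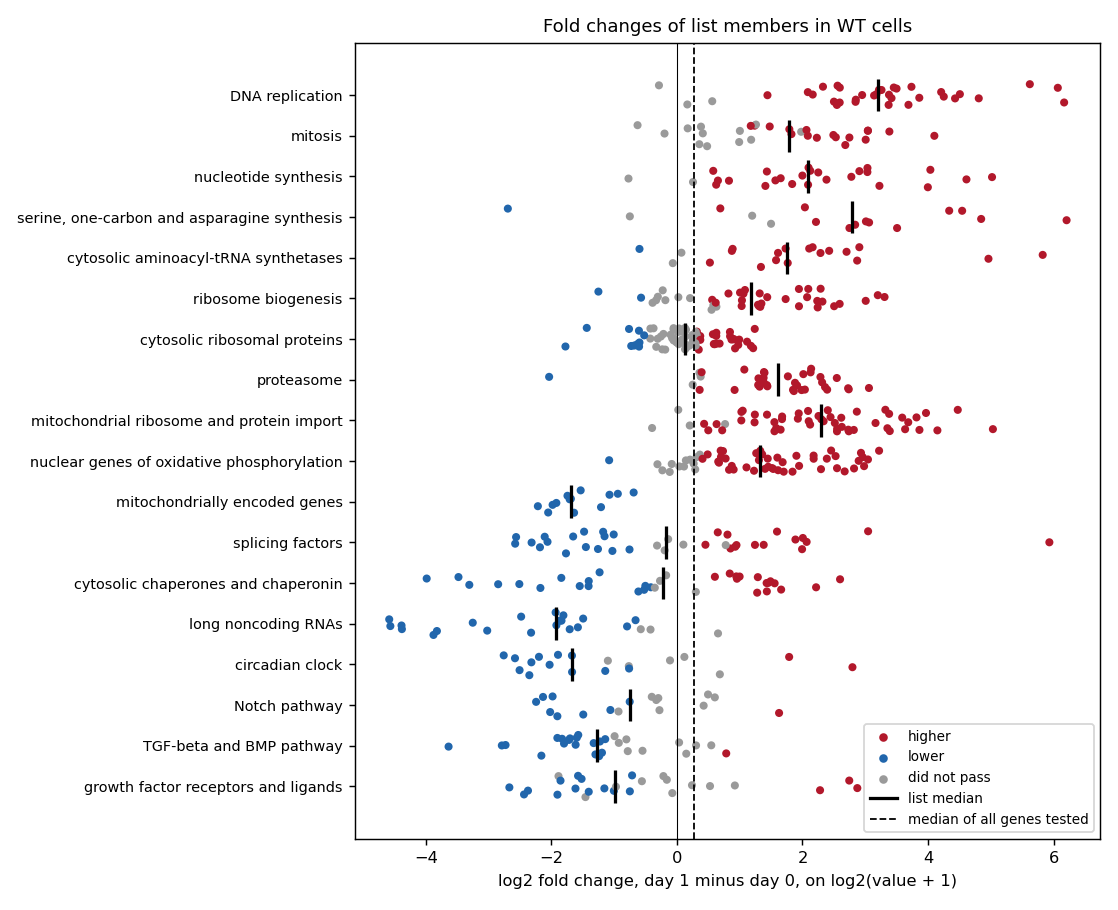
Log2 fold change of each tested member (1 point per gene; red higher, blue lower, grey did not pass; vertical scatter within a row is arbitrary) for 18 of the lists, with the list median as a black bar and the median of all genes tested, 0.27, as a dashed line. The 13 mitochondrially encoded genes lie to the left and the nuclear respiratory and mitochondrial ribosome genes mostly to the right, while the splicing and chaperone lists spread to both sides.

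Genes of carbon metabolism were more often higher across its main routes. Of 30 genes of the tricarboxylic acid cycle and pyruvate entry 24 rose and none fell, with a median of 1.74. Mdh2, malate dehydrogenase, rose by 2.74 ± 0.21. Of 25 genes of fatty acid oxidation 17 rose and 3 fell, with a median of 1.38, and Cpt1a, which admits long chains, did not pass (−0.08 ± 0.40). In glycolysis and the pentose phosphate pathway 19 of 28 rose and 3 fell, with a median of 1.39. Ldha, lactate dehydrogenase, stood at 441, 563, 454 and 493 at day 0, then 2390, 2243, 2766 and 2303 at day 1 (2.31 ± 0.11), and G6pdx, the entry of the pentose route, rose by 3.74 ± 0.59. Pfkp, a phosphofructokinase isoform, fell by 2.09 ± 0.22. In sterol synthesis 16 of 23 rose and 1 fell, with a median of 1.18, and Mvd, of the mevalonate route, reached 10.8 to 27.1 from at most 0.62.

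Genes of protein quality control divided between assembly and stress. Proteasome genes rose in 32 of 36, with 1 lower and a median of 1.60. Psmc1, an ATPase of the regulatory cap, stood at 32.5, 27.3, 65.9 and 43.6 at day 0, then 324, 340, 336 and 365 at day 1 (3.06 ± 0.24). Psme4, an alternative activator, fell by 2.04 ± 0.14. Of 34 cytosolic chaperones 15 rose and 15 fell. All 8 subunits of the chaperonin that folds actin and tubulin rose, by 0.84 to 1.66, with Cct7 at 370, 527, 585 and 436 and then at 1387, 1539, 1578 and 1479. Actb, its actin client, rose by 2.02 ± 0.10.

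Of 17 genes of the heat shock families in the list 13 fell, 3 rose and 1 did not pass, in a subgroup drawn after its values were seen. Falls took in 6 of 7 HSP70 and HSP110 genes, 4 of 7 HSP40 genes and all 3 small heat shock genes. Hspa14 and Dnajc2, both of which act at the ribosome, rose by 2.60 ± 0.45 and 2.22 ± 0.19. Hspa1b stood at 2515, 2372, 1941 and 2148 at day 0, then 119, 129, 221 and 113 at day 1 (−3.99 ± 0.20), and Hspa1a, a near-identical copy with which reads may be shared, fell by 3.48 ± 0.23. Cryab, a small heat shock protein of muscle, fell from 1321, 1852, 1498 and 1289 to 229, 205, 192 and 193. Hspa8, the constitutive HSP70 that also delivers cargo to LAMP2A, stood at 5299, 8161, 9363 and 8397 and then at 4993, 5160, 4781 and 5034 (−0.61 ± 0.16), but rose under quantile normalization (0.61), so its direction is not fixed.

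Genes of the endoplasmic reticulum were mixed, with 12 of 30 higher (40.0%) and 9 lower (30.0%), near the shares of all genes. The folding enzymes Pdia4 and P4hb rose by 4.49 ± 0.80 and 2.01, and Sdf2l1 by 3.24 ± 0.65. Hspa5, the chaperone BiP, fell from 2658, 3498, 4660 and 4042 to 1624, 1778, 2127 and 1616 (−1.03 ± 0.17). The stress sensors Ern1 and Atf6 fell by 2.42 ± 0.27 and 2.01 ± 0.22.

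Lysosomal genes were more often higher, in 17 of 34, with 5 lower and a median of 1.06 (10 higher by edgeR). Ctsd, cathepsin D, stood at 19.98, 45.2, 60.2 and 77.8 at day 0, then 280, 297, 444 and 264 at day 1 (2.76 ± 0.37). Npc1, which exports cholesterol, fell by 2.30 ± 0.18. Lamp2, whose splice form LAMP2A is the receptor of chaperone-mediated autophagy, stood at 509, 870, 628 and 698 at day 0, then 371, 457, 417 and 415 at day 1 (−0.68 ± 0.16, adjusted p = 0.00397), counted over all its splice forms. Of 34 macroautophagy genes 9 rose (26.5%) and 13 fell (38.2%), against 34.2% and 27.5% of all genes (5 rose by edgeR). Ulk1 and Rb1cc1, of the kinase that starts autophagosomes, fell by 2.60 ± 0.20 and 2.68 ± 0.30, and all 5 members of the ATG8 family, which coat the membrane, fell, by 0.58 to 1.07. Bnip3, a receptor for mitochondria, rose from 1.20, 6.53, 0.116 and 1.10 to 32.2, 36.0, 34.3 and 30.4.

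Of 27 genes of the NRF2 and oxidative stress list 8 rose (29.6%) and 7 fell (25.9%), near the shares of all genes. Hmox1, the haem-degrading enzyme, fell from 375, 563, 708 and 675 to 43.2, 47.8, 50.6 and 39.9 (−3.61 ± 0.20). Gclc, which sets the rate of glutathione synthesis, fell by 3.34 ± 0.29, while the peroxide-clearing enzymes Cat and Gpx1 rose by 3.32 ± 0.69 and 2.41. Of the reductases, Gsr rose by 2.87 ± 0.51 and Txnrd1 fell by 0.98 ± 0.17. Of 23 p53 targets 7 rose (30.4%) and 4 fell (17.4%), against 34.2% and 27.5% of all genes. Bax, a mediator of apoptosis, rose by 1.99 ± 0.24 while Fas, the death receptor, fell by 2.59 ± 0.18.

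Nuclear noncoding RNAs showed the strongest loss after the mitochondrially encoded genes in share of members. Of 23 long noncoding RNAs tested 20 fell and none rose, with a median of −1.92. Malat1, a nuclear speckle RNA, stood at 115300, 77210, 64530 and 86560 at day 0, then 7210, 6184, 4570 and 6070 at day 1 (−3.82 ± 0.19). Its change ran from −4.12 to −0.73 over the alternatives, so the size of the fall depends on the processing. Neat1, the scaffold of paraspeckles, fell from 4719, 4024, 4487 and 4856 to 155, 209, 194 and 196 (−4.58 ± 0.12). Meg3, Rian and Mirg, from the imprinted Dlk1-Dio3 region, fell by 4.57 ± 0.15, 3.88 ± 0.18 and 4.38 ± 0.31. All 9 snoRNA host genes tested fell, among them Gas5 by 2.32 ± 0.12. The values are counts relative to a scaled library size, and Malat1 made up more of the day 0 libraries, as given above.

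Of 36 splicing factors tested 15 rose and 16 fell, and the subgroups here were drawn after their values were seen. All 11 Snrp genes, for the Sm core and proteins of the U1 and U2 particles, rose, by 0.45 to 2.07, and Snrpd3 went from 28.3, 45.3, 62.2 and 63.8 to 218, 198, 177 and 185. None of 17 SR and SR-related proteins and their kinases rose and 15 fell, and of the other 8 factors, of the SF3, U2AF and PRPF groups, 4 rose and 1 fell. Clk1, a kinase of SR proteins, fell from 1851, 2670, 2542 and 2694 to 406, 435, 331 and 453 (−2.58 ± 0.15), and Son, a speckle protein, by 2.32 ± 0.13. In nuclear transport 23 of 36 genes rose and 5 fell, and Nup37 of the pore ring reached 45.0 to 67.9 from at most 0.31, while Nup98 fell by 2.08 ± 0.17.

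**Figure D4:**
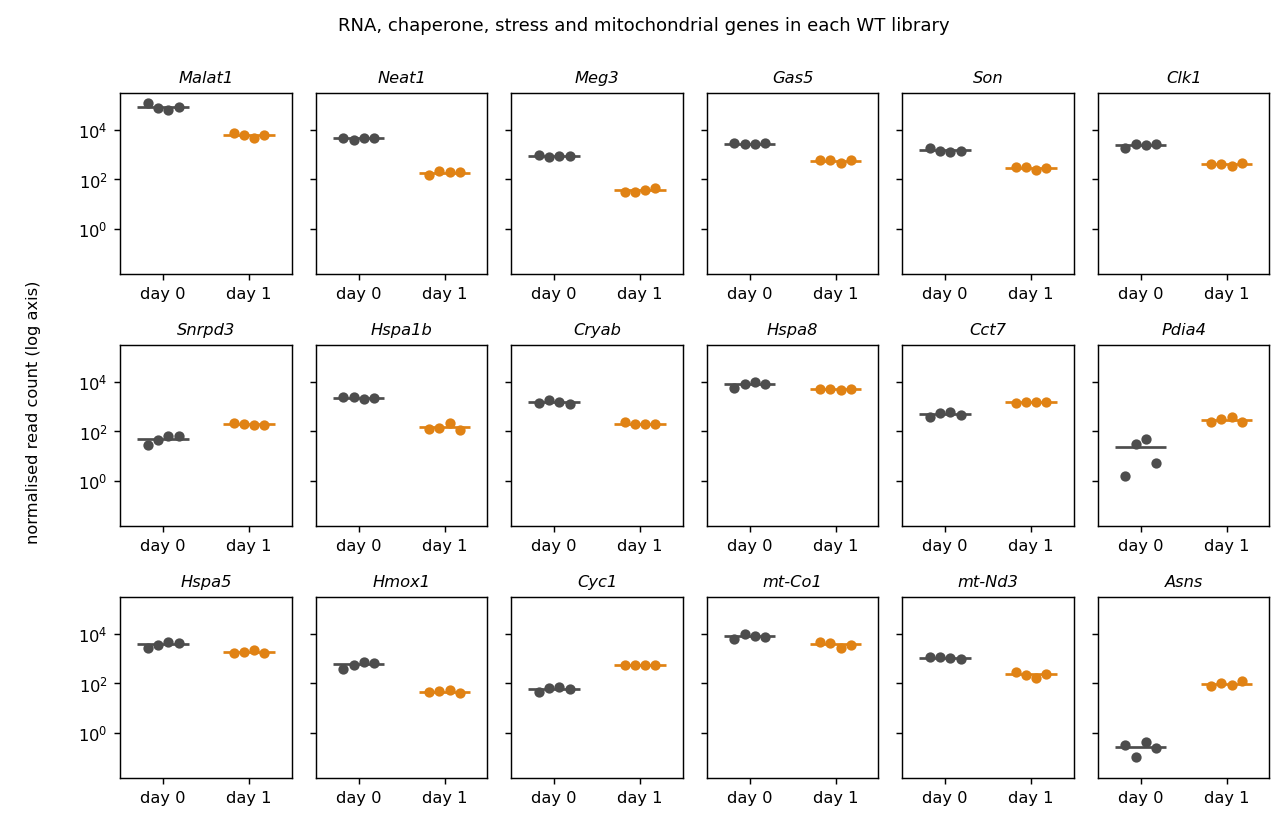
Normalised read counts (log axis) of 18 RNA, chaperone, stress and mitochondrial genes in each day 0 library (grey) and day 1 library (orange), with a bar at each mean. Malat1, Neat1, Hspa1b and Hmox1 lie lower in every day 1 library than in any day 0 library, and Cct7, Cyc1 and Asns lie higher.

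Chromatin regulators were lower in 19 of 40 and higher in 7, with a median of −0.58. Enzymes that copy marks at replication rose: Uhrf1, which brings Dnmt1 to new DNA, stood at 0.241, 0.0365, 0.193 and 2.29 at day 0, then 32.4, 44.3, 88.7 and 47.4 at day 1 (5.08 ± 0.50), and Dnmt1 rose by 2.21 ± 0.31. Dnmt3a, which sets methylation on fresh sites, fell by 2.48 ± 0.33, Tet2, which removes it, by 2.55 ± 0.21, and the histone methyltransferase Kmt2a by 2.48 ± 0.19. Clock genes were lower in 12 of 19 and higher in 2, with a median of −1.67. Per2, Clock and Arntl fell by 2.76 ± 0.31, 2.58 ± 0.19 and 2.51 ± 0.23, and Bhlhe40, a repressor, rose by 1.79 ± 0.22. The hour of sampling is not given in the sources used here. Of 22 imprinted genes 12 fell and 5 rose (2 rose by edgeR). Dlk1, a Notch-like ligand, reached 6.31 to 20.8 from at most 0.423, and Peg3 fell by 1.72 ± 0.10. Cilium and hedgehog genes were higher in 11 of 31 (35.5%, near the share of all genes, and 7 by edgeR) and lower in 3, with Ift52 up by 3.85 and Arl13b down at −1.53.

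Immediate early genes were mixed, with 12 of 31 higher (38.7%, 6 under median scaling) and 8 lower (25.8%), near the shares of all genes. Junb, an AP-1 subunit, rose from 186, 219, 226 and 241 to 642, 781, 978 and 718 (1.82 ± 0.15). Fos passed (0.96 ± 0.32, adjusted p = 0.0251) but not by edgeR (0.80, adjusted p = 0.0547) or under median scaling (0.67, adjusted p = 0.101), and Jun did not pass (−0.05 ± 0.24). Fosl2 fell from 412, 356, 332 and 372 to 95.8, 95.04, 76.0 and 85.9. Socs3, a feedback inhibitor of cytokine receptors, rose by 2.27 ± 0.39.

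Of 26 growth factor receptors and ligands 13 fell, 3 rose and 10 did not pass, with a median of −0.99. Fgfr1 stood at 742, 740, 719 and 685 at day 0, then 127, 146, 144 and 116 at day 1 (−2.44 ± 0.11), opposite to Fgfr4. Igf1r fell by 2.67 ± 0.19 and Egfr by 1.16 ± 0.12. Met, the receptor for hepatocyte growth factor, did not pass (0.53 ± 0.22, adjusted p = 0.0612), but passed by DESeq2 (0.57), in the fit to all 24 libraries (0.53) and without day 0 replicate 2 or 3 (0.64 in each). Hbegf, an EGF family ligand, rose from 6.78, 42.6, 15.2 and 2.43 to 82.6, 82.8, 94.0 and 56.1.

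The TGF-beta and BMP pathway was lower in 18 of 28 genes and higher in 1, with a median of −1.27. Bmpr2, a BMP receptor, stood at 240, 342, 329 and 302 at day 0, then 50.9, 46.7, 33.6 and 48.9 at day 1 (−2.73 ± 0.18). Smad3, a transducer, fell by 1.70 ± 0.34, and Fst, which blocks activin and myostatin, by 2.79 ± 0.45. Bmp1, despite its name a procollagen protease, fell from 224, 207, 202 and 227 to 15.7, 16.6, 14.7 and 18.7 (−3.64 ± 0.16).

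Chemokines and cytokines were higher in 9 of 19 and lower in 1. Csf1, a growth factor of macrophages, stood at 7.81, 14.5, 2.42 and 11.4 at day 0, then 68.2, 99.2, 131 and 84.4 at day 1 (3.43 ± 0.45). Cxcl5, a neutrophil attractant, reached 20.9 to 113 from 0.11 to 5.50, with replicates 1 and 3 high at day 1. Cxcl12 rose by 2.58 ± 0.55, and Cxcl1 fell from 1178, 835, 834 and 1217 to 634, 505, 638 and 559. Interferon genes gave 10 of 27 higher (37.0%, 2 by edgeR and 4 by DESeq2) and 6 lower (22.2%), near the shares of all genes. Bst2 rose by 3.24 ± 0.55, while B2m and H2-K1, of antigen presentation, fell by 1.61 ± 0.17 and 1.51 ± 0.13.

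None of 18 collagens rose and 9 fell, with a median of −0.77, among them Col4a1 of the basal lamina (−1.16 ± 0.15) and Col15a1 (−2.94 ± 0.38). Of 34 laminins, glycoproteins and proteoglycans 8 rose (23.5%) and 11 fell (32.4%), against 34.2% and 27.5% of all genes. Beside Tnc, Sparc rose from 280, 403, 476 and 446 to 1486, 1355, 1461 and 1151, while Thbs2 fell from 358, 454, 496 and 441 to 30.3, 41.3, 67.8 and 42.1 and Lama2, the laminin chain of muscle, by 1.37 ± 0.17. Col3a1 and Dcn, also markers of fibro-adipogenic progenitors, fell by 1.22 ± 0.18 and 2.38 ± 0.51. Of 22 matrix proteases and inhibitors 6 rose (27.3%) and 9 fell (40.9%), against the same shares of all genes. Timp1, a protease inhibitor, stood at 6.09, 10.4, 1.66 and 3.02 at day 0, then 233, 190, 174 and 176 at day 1 (5.15 ± 0.41), and Adam12, a protease of regenerating muscle, rose by 4.61 ± 0.35.

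Adhesion genes gave 7 of 26 higher and 7 lower (26.9% each), near the shares of all genes. Itgav fell from 192, 222, 235 and 164 to 20.1, 21.7, 23.3 and 23.6 (−3.13 ± 0.17). Actin and motility genes were higher in 23 of 37 and lower in 4, with a median of 0.71. Tuba1b, a tubulin, stood at 109, 222, 284 and 193 at day 0, then 2326, 2468, 2602 and 2429 at day 1 (3.68 ± 0.24), and Pfn1, which feeds actin to growing filaments, rose by 2.81 ± 0.14. Rac1, a GTPase of cell shape, fell by 1.23 ± 0.22.

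Sarcomere genes were higher in 11 of 23 and lower in 3. Acta1, skeletal muscle actin, stood at 0.241, 0.11, 0.193 and 0.897 at day 0, then 89.5, 117, 125 and 82.0 at day 1 (6.28 ± 0.35), and Ckm, muscle creatine kinase, rose by 4.31 ± 0.41. The list of mature myofibre markers, which holds 9 of the same genes, gave 11 of 13 tested higher and none lower. Its summed value was 15.5 to 43.7 at day 0 and 217.5 to 292.6 at day 1, and Pvalb, a calcium buffer of fast fibres, reached 2.78 to 5.34. Myom2 and Ttn, of the myosin band and the elastic filament, were lower (−3.40 and −1.26). The part of myofibre RNA in the sarcomere and Myog values was not tested.

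A gene span, from RefSeq on GRCm38.p6, was found for 11857 of the tested genes (91.3%). In the quintile of genes with the longest spans (68.2 kb or more) 16.6% were higher and 42.5% lower, against 44.2% and 19.8% in the shortest and 48.5% and 13.5% in quintile 2 (7.32 to 16.5 kb). The median log2 fold change was −0.63 in the longest quintile and 0.65 in the shortest. Genes that fell had a median span of 41.4 kb and genes that rose 16.4 kb. Within the tertile of genes with the highest mean values, 70.4% of the longest quintile fell and 12.8% rose, against 17.3% and 55.3% of the shortest. In the tertile with the lowest values 19.6% of the longest quintile fell, fewer than the 24.3% of the shortest, and 17.9% rose against 30.1%. Among the lists with more falls, the median span was 53.6 kb for the TGF-beta and BMP pathway, 42.9 kb for chromatin regulators, 41.4 kb for growth factor receptors and 30.4 kb for the clock, but 3.94 kb for the long noncoding RNAs. It was 7.31 kb for the mitochondrial ribosome and import, 12.4 kb for the proteasome and 15.9 kb for DNA replication. Some other lists with more rises had longer spans, at 39.7 kb for nuclear transport, 29.5 kb for mitosis, 29.3 kb for fatty acid oxidation and 27.8 kb for synthetases. Cell cycle brakes, with more falls, had a median span of 8.18 kb. The part of gene span in the falls was not tested.

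**Figure D5:**
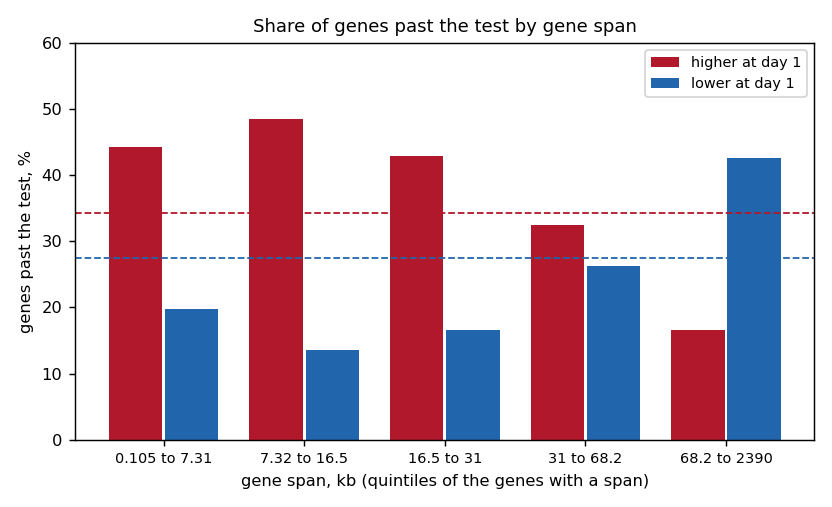
Share of tested genes past the test, higher (red) or lower (blue) at day 1, in quintiles of gene span in kb; dashed lines give the shares over all genes tested, 34.2% and 27.5%. The share higher falls from 48.5% in quintile 2 to 16.6% in the longest, where 42.5% were lower.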

How the data were processed

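RNA sequencing libraries of sorted muscle stem cells were made with a SMART-Seq v4 Ultra Low Input kit, per the labels' protocols. FastQC, STAR, RSEM, limma and the build mm39 are named in the submitters' processing notes; versions and strand use are not given in the sources used here. The deposited table, a normalised signal, is per the authors' values the whole read count plus 0.5 divided by a scaled library size in M. Whole reads were recovered from all its values (tolerance 0.02 reads), and no per-sample column was left unused (0). Rounding of estimated counts before deposit is not recorded.

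The 8 wild type libraries of days 0 and 1 were compared with limma 3.58.1 (R 4.3.3) on log2(value + 1), with a mean-variance trend and Benjamini-Hochberg adjustment over the 12983 genes that reached 1 in 4 or more libraries. Only these 8 libraries set the spread. Alternatives were other filters, pseudocounts, scalings, weights, all 24 libraries, a replicate block, each library left out, and edgeR 4.0.16 (quasi-likelihood) and DESeq2 1.42.0 on the recovered reads. Fits were tested on simulated data.

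The gene lists and comparison were chosen with earlier results of these data known. Named genes were those with the largest changes, those close to silent at one day, up to 4 per list and direction, and a fixed set of names. Those with the largest changes were picked among genes past the test whose groups do not overlap. Another 38 named genes fall outside this rule and were chosen after their values were seen. Some members of the lists are counted but not reported here by name. The floor is 3 counts, and intervals cover counting error only. Promoter windows and gene spans come from RefSeq on GRCm38.p6, matched by symbol or identifier. That is another build than the authors' mm39, so the only coordinates given are those of RefSeq promoter stretches on GRCm38.p6.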

Additional observations from a re-analysis of the deposited data

Results flagged for a closer look

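A single library stood apart from the other 3 of its group in 24 of 412 groups of normalised read counts checked, 1 group being the 4 libraries of a day for a gene named above. A gap is named where it passes the 95% critical value of Dixon's test, which chance passes in about 1 in 20 groups. Each value is given against the range of the other 3 libraries. In day 0 replicate 1, the library held Myc at 182 against 310 to 334, Atf6 at 117 against 189 to 201, Clk1 at 1851 against 2542 to 2694 and Ckm at 1.41 against 0.0997 to 0.193. In day 0 replicate 2, the library held Cdh15 at 10.6 against 22.1 to 24.8, Notch2 at 25.5 against 47 to 50.7 and Mvd at 0.62 against 0.0385 to 0.103. In day 0 replicate 3, the library held Pola2 at 23.1 against 38.8 to 41.4, Dlk1 at 0.423 against 0.0332 to 0.0365, Jun at 66.2 against 117 to 129 and Ttn at 18.7 against 26.8 to 27.7. In day 0 replicate 4, the library held Lyz2 at 86.5 against 0.474 to 1.69, Mcm7 at 35.6 against 49.4 to 51.6, Gnl3 at 952 against 770 to 794 and Mrps2 at 8.28 against 0.0365 to 0.423. The same library, day 0 replicate 4, held Uhrf1 at 2.29 against 0.0365 to 0.241 and Pvalb at 0.166 against 0.0344 to 0.0385. In day 1 replicate 1, the library held Lyz2 at 12 against 0.849 to 1.29, Cdkn2c at 27.6 against 19.7 to 20.5 and Chaf1b at 61.1 against 76.4 to 78.3. In day 1 replicate 2, the library held Lama2 at 124 against 97.6 to 99.2. In day 1 replicate 3, the library held Pcna at 441 against 517 to 525, Gas5 at 443 against 581 to 602 and Ttn at 6.68 against 10.6 to 11.6.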

How the results depend on the processing

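Counts of genes higher or lower stayed within 1.5 times of 4444 and 3569 under every alternative run, from 3235 to 4670 higher and 2698 to 4245 lower. Leaving out 1 library gave 3940 to 4556 higher and 3205 to 3652 lower. Of all calls, 55.5% were higher, against 47.5% by edgeR, 47.7% under median scaling and 48.1% under quantile normalization. Calls held under all alternatives but the stricter filter for 2935 of 4444 higher genes and 2998 of 3569 lower genes. A replicate block gave 4422 higher and 3460 lower. Deviations of same-numbered libraries correlated at 0.0365, 0.00763, 0.0457 and −0.0161, so the numbers were not taken as pairs. Hspa8 reversed under quantile normalization (0.61, adjusted p = 0.00342, against −0.61). The cause was not tested. Fos was also lost with no mean-variance trend and without day 1 replicate 1 or 3 (adjusted p 0.0534 to 0.0666). Genes with few reads at day 0 limit precision, since 2496 to 2864 genes had 0 counts in a day 0 library.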

Other observations

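Several other genes had only 1 to 3 counts over the 4 day 0 libraries, and were chosen after their values were seen. Fen1, the flap nuclease that finishes lagging strands, gave a ratio of day 1 to day 0 of 2900 (exact 95% counting interval 521 to 115000). Trip13, an ATPase of the mitotic checkpoint, gave 757 (209 to 6250) and Brca1, of DNA repair, 208 (70.8 to 1010). Serpina3n, a secreted protease inhibitor, gave 423 (145 to 2060), and Bcat1, which transfers nitrogen from branched amino acids, 1120 (201 to 44300). The intervals cover counting error only.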
